A study of Mus musculus with 6 samples.

Results

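The genes described here are 4 interleukin genes of type 2 immunity (Il13, Il4, Il5 and Il9), the growth factor gene Areg, and 3 genes that lie beside the interleukin genes on mouse chromosome 11 (Rad50, Kif3a and Sept8). They are 8 of the 46517 gene identifiers in the tables, and 7 of them, all but Il5, passed the count filter that left 12407 genes to test. The 8 were picked by name with their difference between the groups already known. Their values are therefore a description, and no p-value is given for any of them.

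The libraries are poly(A) RNA-seq of CD8 T cells from C57BL/6J mice, 3 per group. In the IL-3 supernatant group, T cells activated on anti-CD3 (5 μg/mL) with anti-CD28 (0.5 μg/mL) and IL-2 (100 units/mL) for 3 days were given, from day 1 to day 2, culture supernatant of sorted basophils that had been held for 2 days in medium with IL-2 and IL-3 at 3 ng/mL. In the PBS supernatant group, everything was the same except that the basophils had PBS in place of IL-3. Both groups thus saw IL-2 and basophil products, and IL-3 carried over with the supernatant cannot be told apart from what the basophils made, since IL-3 medium without basophils is not analysed here. Whether the 3 replicates of a group came from different mice or cultures is not in the labels, and the p-values rest on a spread between libraries that may be only technical.

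Type 2 cytokines are the messengers of responses to worms and allergens. IL-4 and IL-13 share the receptor chain IL-4Rα and the factor STAT6, IL-5 drives eosinophils, IL-9 acts on mast cells, and amphiregulin, the product of Areg, is a ligand of the EGF receptor made in tissue repair. In CD4 T cells of the Th2 lineage, the factor GATA3 opens a cluster of genes in which Il4, Il13 and Il5 share control elements, some of them inside Rad50. Rad50 encodes a subunit of a complex that senses broken DNA, Kif3a a motor subunit of kinesin-2, and Sept8 a septin, a GTP-binding protein of the cytoskeleton.

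Totals of expected counts, the authors' read estimates per gene, ran from 17377052 to 22174902 per library. A count of 0 in a library allows a level of up to 0.135 to 0.171 CPM (counts scaled to an effective library size with TMM), taking 3 counts as the limit and covering counting error only. Libraries of the same group correlated at 0.981 to 0.989 (Pearson, log2 CPM across tested genes), and libraries of different groups at 0.954 to 0.961. PBS supernatant replicate 2 had the lowest correlations of its group, and 4.51% of its counts fell on a single annotated gene, CT010467.1, against 0.433% to 2.2% in the other 5 libraries.

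Of the 8 genes, 6 lie within a stretch of chromosome 11 (GRCm38, GENCODE coordinates) in the order Sept8, Kif3a, Il4, Il13, Rad50, Il5. Sept8 (ENSMUSG00000018398) runs from 53519257 to 53549565 and Kif3a (ENSMUSG00000018395) from 53567379 to 53601967, both on the plus strand. Il4 (ENSMUSG00000000869) runs from 53602982 to 53618669 and Il13 (ENSMUSG00000020383) from 53631324 to 53634702, both on the minus strand. Rad50 (ENSMUSG00000020380) follows from 53649519 to 53707319 on the minus strand, and Il5 (ENSMUSG00000036117) from 53720794 to 53725106 on the plus strand. Only 1014 bases separate the ends of Kif3a and Il4, which point at each other, while the gaps from Il4 to Il13, from Il13 to Rad50 and from Rad50 to Il5 are 12.7, 14.8 and 13.5 kb. The other members stand apart from the cluster. Il9 (ENSMUSG00000021538) is on chromosome 13, from 56479277 to 56482246 on the minus strand, and Areg (ENSMUSG00000029378) on chromosome 5, from 91139599 to 91148432 on the plus strand.

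The promoters of the 4 interleukin genes are printed because 3 of them were far higher with IL-3 supernatant while Il5 was barely detected, and that of Kif3a because it is the neighbour of Il4. Each line holds the 250 bases before the start of the transcript, 5′ to 3′ in the gene's own direction, from RefSeq (GRCm38.p6). The windows are chr11:53634703-53634952 (minus strand) for Il13, chr11:53618666-53618915 (minus strand) for Il4, chr11:53720544-53720793 (plus strand) for Il5, chr13:56482258-56482507 (minus strand) for Il9 and chr11:53567119-53567368 (plus strand) for Kif3a. Capitals mark matches, on either strand, to the NFAT core GGAAA, to the AP-1 motif TGANTCA, and to a GATA motif of 6 letters that is AGATAA or TGATAA, or either of them with its last letter changed to G.
Il13: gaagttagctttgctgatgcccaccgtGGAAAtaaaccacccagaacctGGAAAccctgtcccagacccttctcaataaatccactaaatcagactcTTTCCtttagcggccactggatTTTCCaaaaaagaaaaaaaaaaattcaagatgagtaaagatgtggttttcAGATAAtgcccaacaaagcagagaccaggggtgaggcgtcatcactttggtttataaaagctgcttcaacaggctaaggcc
Il4: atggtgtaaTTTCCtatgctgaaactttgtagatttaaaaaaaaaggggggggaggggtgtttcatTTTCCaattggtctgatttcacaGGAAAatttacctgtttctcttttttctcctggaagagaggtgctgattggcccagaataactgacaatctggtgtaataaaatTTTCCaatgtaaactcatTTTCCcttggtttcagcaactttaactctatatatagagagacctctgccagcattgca
Il5: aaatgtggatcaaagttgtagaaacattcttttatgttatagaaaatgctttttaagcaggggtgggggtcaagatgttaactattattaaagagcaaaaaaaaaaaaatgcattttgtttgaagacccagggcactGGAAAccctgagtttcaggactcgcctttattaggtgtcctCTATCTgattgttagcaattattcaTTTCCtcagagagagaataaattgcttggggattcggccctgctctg
Il9: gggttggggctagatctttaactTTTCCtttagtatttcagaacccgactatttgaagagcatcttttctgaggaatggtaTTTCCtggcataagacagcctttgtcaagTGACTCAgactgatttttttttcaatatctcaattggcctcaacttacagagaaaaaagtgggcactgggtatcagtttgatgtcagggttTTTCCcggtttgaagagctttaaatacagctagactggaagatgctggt
Kif3a: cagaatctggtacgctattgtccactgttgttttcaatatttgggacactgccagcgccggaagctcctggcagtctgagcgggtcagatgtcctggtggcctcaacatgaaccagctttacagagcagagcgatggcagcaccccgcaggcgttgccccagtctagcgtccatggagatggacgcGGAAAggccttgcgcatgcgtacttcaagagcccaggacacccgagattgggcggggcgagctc

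The NFAT core occurred 4 times before Il13, 5 times before Il4, 2 times before Il5, 3 times before Il9 and once before Kif3a, and 55.7% of 32536 promoters of the same length hold at least 1 match. A GATA match stood 81 bases before the start of Il13 and 72 bases before the start of Il5, with 26.5% of all promoters holding a match. The Il9 window had an AP-1 match, as did 6.73% of all promoters. The windows of Il4 and Il9 each held a STAT6 motif, TTC and GAA with 4 bases between them, as did 5.89% of all promoters, and the match in Il4 overlaps an NFAT core. Matches to letters are a description and do not show that a factor binds. The interleukin windows were poor in G and C, with 43.2% for Il13, 37.6% for Il4 and for Il5, and 40.4% for Il9, and held between 0 and 3 CpG pairs. The windows of Kif3a, Areg and Sept8 held 58.8%, 57.2% and 62% G and C and 11 to 15 CpG pairs, and the median of all promoters was 52.4% with 6 pairs. The RefSeq start used for Sept8 lies 479 bases inside the GENCODE gene, so its whole window falls within the annotated gene. The Areg window carried the cyclic AMP response motif TGACGTCA, which 1.56% of promoters hold. Rad50 was not in the promoter table.

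Il13, the main effector cytokine of type 2 responses in barrier tissues, was nearly silent with PBS supernatant and abundant with IL-3 supernatant. It had 5187, 5814 and 4283 counts in the IL-3 supernatant libraries, against 2, 2 and 9 with PBS supernatant. The groups were far apart, and within the PBS group replicate 3 held 9 of the 13 counts. Scaled to library size, Il13 averaged 249 ± 26.6 CPM with IL-3 supernatant and 0.245 ± 0.232 CPM with PBS supernatant (SD, n = 3 each). The log2 fold change from the fit over all genes was 9.97 (SE 0.23). It was 11.05 without PBS supernatant replicate 3. Of all tested genes 1, or 0.00806%, had a value of 9.97 or more, Il13 itself. Nothing is read from this rank, since Il13 was chosen on this contrast and passed the count filter only through the IL-3 supernatant group. In RNA from a whole culture, more cells with a transcript and more transcript per cell cannot be told apart.

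Il4, which encodes the cytokine that drives Th2 commitment and the switch to IgE, had 70, 103 and 69 counts in the IL-3 supernatant libraries. With PBS supernatant its counts were 0, 0 and 1. The ratio of summed counts, scaled as the CPM are, was 212, with a 95% exact counting interval of 37.6 to 8397 that rests on the single count of PBS supernatant replicate 3. Il9, which lies on another chromosome, had counts of similar size. It had 59, 81 and 52 counts with IL-3 supernatant and 0, 0 and 1 counts with PBS supernatant, a ratio of 168 (29.8 to 6669). Neither gene's groups overlapped. With PBS supernatant replicate 3 left out, the PBS group had no counts of either, and the IL-3 group was at least 47.5-fold higher for Il4 and at least 37.7-fold higher for Il9, taking 3 counts over the group as the limit.

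Il5, whose product supports eosinophils, stayed near the limit of detection in every library. It had 6, 4 and 8 counts with IL-3 supernatant and 0, 0 and 4 counts with PBS supernatant, all 4 of the last in replicate 3. In CPM the groups overlapped, with 0.18 to 0.408 CPM in the IL-3 supernatant libraries and up to 0.228 CPM in the PBS supernatant libraries. The ratio of summed counts was 3.94 (95% exact counting interval 1.3 to 16). Il5 is therefore the member of the chromosome 11 cluster whose level was barely measurable in both groups at this depth.

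The 4 interleukin genes summed to 15736 counts over the IL-3 supernatant group and 19 over the PBS supernatant group. Il13 dominated the sum in each IL-3 supernatant library. It made up 97.5%, 96.9% and 97.1% of the 4-gene sum, with exact binomial 95% intervals, for counting error only, that all lie between 96.4% and 97.9%. Il4 made up 1.32% to 1.72% and Il5 0.0666% to 0.181%. Per transcript length, in the authors' TPM, the level of Il13 was 27.6 to 36.3 times that of Il4 and 31.9 to 39.1 times that of Il9, while Il4 was 1.08 to 1.2 times Il9. The mix in PBS supernatant replicate 3, which held 15 of that group's 19 counts, was another: Il13 was 60% (interval 32.3% to 83.7%) and Il5 26.7% (7.79% to 55.1%). PBS supernatant replicates 1 and 2 had 2 counts each, all of Il13.

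**Figure D1:**
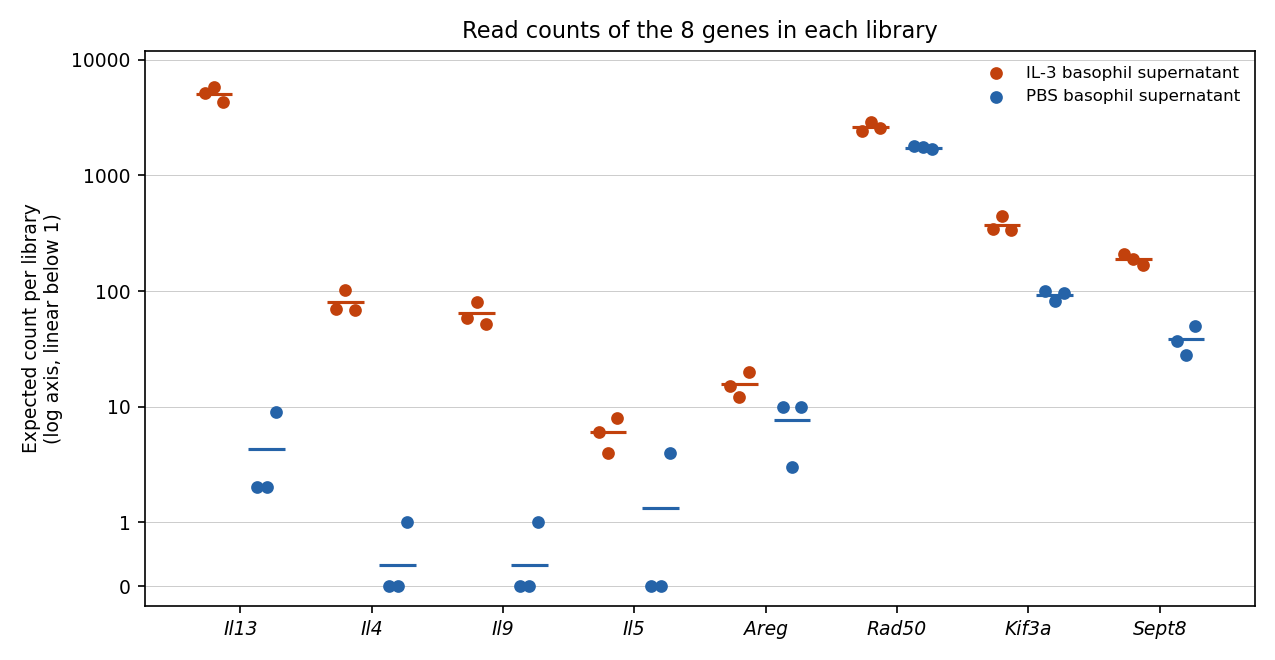
Expected counts of the 8 genes in each library, on a log axis that is linear below 1; IL-3 supernatant libraries (orange) stand left of PBS supernatant libraries (blue), and bars are group means. Il13 reaches 4283 to 5814 counts with IL-3 supernatant against 2 to 9 with PBS supernatant, Il4 and Il9 have a single count each in the PBS group, and Il5 and Areg stay at 20 counts or fewer in every library.

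Basophils themselves make IL-4 and IL-13, so markers of basophils and mast cells were read in the same libraries. Of 19 marker genes found, 6 had 0 counts in all 6 libraries, among them the basophil proteases Mcpt8 and Prss34 and the IgE receptor subunits Fcer1a and Ms4a2, in both groups. Cpa3, a protease of mast cells and basophils, had 1 count in all. The whole list summed to 17.9 to 22.1 CPM in IL-3 supernatant libraries and 20.4 to 30.4 CPM in PBS supernatant libraries. The part of basophil transcripts in the interleukin values was not tested. Of the 6 markers tested, Cyp11a1 (log2 4.54, edgeR adjusted p = 4.8e-06) and Cd63 (log2 2.07) rose, and Kit (log2 -2.16) and Il1rl1 (log2 -1.21) fell. Cyp11a1, with 1, 4 and 1 counts in PBS supernatant libraries, passed the count filter only through the IL-3 supernatant group. Il1rl1 encodes the receptor of IL-33, and T cells express it too.

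The labelled cell type was checked on its markers. The 15 T cell and CD8 markers were all detected, summing to 3680 to 3919 CPM with IL-3 supernatant and 5033 to 5270 CPM with PBS supernatant, so this list was lower in the group with the interleukin transcripts. Cd4 had 0, 11 and 8 counts in IL-3 supernatant libraries and 8, 15 and 14 counts in PBS supernatant libraries. The 6-gene CD4 T cell list, which includes the CD4 lineage factor gene Zbtb7b (18 ± 1.29 CPM with IL-3 supernatant and 6.36 ± 1.72 CPM with PBS supernatant), stood at 21.3 to 24.6 CPM with IL-3 supernatant and 16 to 18.6 CPM with PBS supernatant. Foxp3, the factor of regulatory T cells, fell by 5.43 on the log2 scale. Markers of innate lymphoid, gamma delta and invariant T cells summed to 16.8 to 19.3 CPM with IL-3 supernatant and 21.2 to 28.2 CPM with PBS supernatant. B cell markers, nearly all of it Ighm, summed to 110 to 132 CPM with IL-3 supernatant and 292 to 324 CPM with PBS supernatant, and myeloid markers to 2.47 to 4.54 CPM with IL-3 supernatant and 2.27 to 3.71 CPM with PBS supernatant. The part of these lists in the interleukin values was not tested.

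Areg, a growth factor that T cells and innate lymphoid cells release in type 2 responses and tissue repair, did not follow the interleukins. It had 15, 12 and 20 counts in IL-3 supernatant libraries and 10, 3 and 10 with PBS supernatant. The groups overlapped, since the lowest IL-3 supernatant library stood at 0.54 CPM and the highest PBS supernatant library at 0.57 CPM. The means were 0.778 ± 0.24 CPM with IL-3 supernatant and 0.431 ± 0.229 CPM with PBS supernatant (SD, n = 3 each). The fitted log2 difference was 0.84 (SE 0.54). The ratio of summed counts was 1.79 (95% exact counting interval 1.06 to 3.08), and the lowest Areg count was in PBS supernatant replicate 2, the library that stands apart.

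The 3 neighbours without a cytokine function were all transcribed in both groups, and each was higher with IL-3 supernatant in every library. Sept8, at the far end of the stretch, had 209, 188 and 168 counts with IL-3 supernatant and 37, 28 and 50 counts with PBS supernatant. Its level was 9.27 ± 1.3 CPM with IL-3 supernatant and 2.15 ± 0.655 CPM with PBS supernatant, a log2 fold change of 2.10 (SE 0.22). Kif3a, next to Il4, had 341, 444 and 337 counts with IL-3 supernatant and 101, 82 and 96 counts with PBS supernatant. Its level was 18.3 ± 1.52 CPM with IL-3 supernatant and 5.21 ± 0.584 CPM with PBS supernatant (log2 1.81, SE 0.14).

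Rad50, the gene whose introns hold control elements of the cytokine cluster in Th2 cells, was by far the most abundant neighbour and moved least. It had 2406, 2920 and 2596 counts with IL-3 supernatant and 1795, 1758 and 1685 counts with PBS supernatant. Its level was 129 ± 4.71 CPM with IL-3 supernatant and 97.8 ± 1.93 CPM with PBS supernatant (log2 0.40, SE 0.06). Rad50 lies between Il13 and Il5, and it was 1.32-fold higher while Il13 was about 1000-fold higher. Of the 8 members, the groups did not overlap for 6, all higher with IL-3 supernatant. Over all tested genes, 21.0% were higher without overlap. Il13, Il4 and Il9, with 9 counts or fewer in each PBS supernatant library, passed the count filter only through the IL-3 supernatant group. Their lack of overlap is therefore no separate result. Of the 6 members without overlap, all but Rad50 were at least 2-fold higher. Over all tested genes, 4.34% were at least 2-fold higher with an adjusted p below 0.05 (edgeR), a condition not set for the members. Nothing is read from these counts, since the members were chosen on this contrast.

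Replicate spread set the precision differently for each gene. In the IL-3 supernatant libraries the coefficient of variation of CPM was 10.7% for Il13, where counting error alone gives 1.4%, and 3.64% for Rad50, where it gives 1.95%. For Il4 (15.8%, against 11.1% from counting) and Il9 (16.1%, against 12.5%) the spread was closer to what counting gives. For Il5 the observed 38.3% is below the 40.8% that counting gives, so its 3 values do not separate.

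Levels can be set side by side only per transcript length, which the authors' TPM provide. With IL-3 supernatant the order was Il13 at 405 ± 40.2 TPM, Rad50 at 51.2 ± 2.15, Kif3a at 14.3 ± 0.94, Il4 at 13 ± 2.02, Il9 at 11.4 ± 1.76, Sept8 at 4.32 ± 0.735, Areg at 1.26 ± 0.397 and Il5 at 0.382 ± 0.149 TPM (SD, n = 3 each). Kif3a and Il4 overlapped in that order, as did Il4 and Il9, and the other neighbours in the order did not. In PBS supernatant libraries the order was led by Rad50, with 39.2, 35.3 and 37.6 TPM in replicates 1, 2 and 3, followed by Kif3a with 4.6, 3.4 and 4.68 TPM. Sept8 had 1.03, 0.675 and 1.32 TPM and Areg 0.905, 0.253 and 0.915 TPM, which overlap. Il13 had 0.183, 0.17 and 0.83 TPM there, and Il4, Il5 and Il9 were listed at 0 in replicates 1 and 2. The values of PBS supernatant replicate 2 are sums over its isoform table. By TPM, Il13 ranked 310th, 329th and 414th of all 46517 genes in the IL-3 supernatant libraries and between 11832nd and 14595th in the PBS supernatant libraries.

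**Figure D2:**
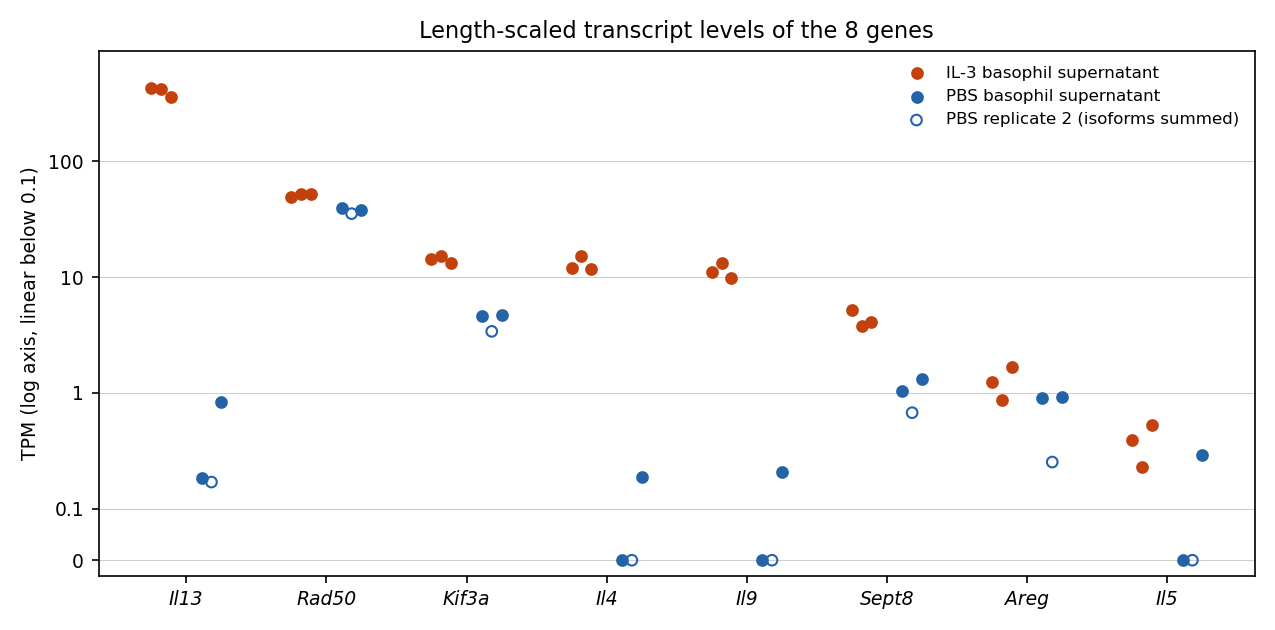
TPM of the 8 genes in each library, on a log axis that is linear below 0.1, with IL-3 supernatant libraries (orange) left of PBS supernatant libraries (blue); open circles are PBS supernatant replicate 2, whose isoform values were summed. Il13 stands above Rad50 in every IL-3 supernatant library, and below Kif3a and Sept8 in every PBS supernatant library.

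Isoform values exist for PBS supernatant replicate 2. There, 98.7% of the TPM of Rad50 came from the full protein-coding transcript Rad50-201, 79% of that of Kif3a from Kif3a-201 with the remaining 21% from Kif3a-203, and 84.2% of that of Sept8 from Sept8-201. No such split can be given for the IL-3 supernatant group.

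The other genes around the cluster were read in the same fit. Of 51 other annotated genes within 1 Mb of Il13, 15 were tested, and by edgeR's quasi-likelihood test (Benjamini-Hochberg) 7 rose, 2 fell and 6 did not pass, where 14.8% of all tested genes rose and 16.1% fell. Their median log2 fold change was 0.14, against 0.00 over all tested genes. On the side of Sept8, the next tested genes changed little. Uqcrq, a subunit of respiratory complex III, rose by log2 0.23 (SE 0.06, adjusted p = 0.0106), Aff4, a scaffold of transcription elongation, by 0.29 (adjusted p = 8.4e-04), and the chaperone gene Hspa4 stood at 0.04 (adjusted p = 0.615). On the side of Il5, the next tested gene fell. Irf1, a factor of interferon responses that lies 135 kb from Il13, averaged 59 ± 7.29 CPM with IL-3 supernatant and 95.5 ± 5.79 CPM with PBS supernatant (log2 -0.70, adjusted p = 1.1e-05).

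Of the next tested genes beyond Irf1, Gm17334 (log2 -0.74), Gm12216 (-1.16) and Slc22a5 (-0.19) did not pass, and higher genes followed farther out. Slc22a21, a carnitine transporter, rose by log2 1.54 (adjusted p = 0.0163), with counts of 41, 53 and 33 with IL-3 supernatant and 13, 20 and 5 with PBS supernatant. P4ha2, a prolyl hydroxylase of collagen synthesis, averaged 16.8 ± 1.36 CPM with IL-3 supernatant and 1.47 ± 0.602 CPM with PBS supernatant. Csf2, which encodes GM-CSF and lies 613 kb from Il13, averaged 301 ± 8.63 CPM with IL-3 supernatant and 18.6 ± 2.73 CPM with PBS supernatant (log2 4.01, adjusted p = 1.7e-13). Il3 averaged 188 ± 17.8 CPM with IL-3 supernatant and 7.34 ± 0.165 CPM with PBS supernatant (log2 4.68, adjusted p = 1.5e-15). Acsl6, a fatty acid activating enzyme, rose by log2 2.70, and farther out Rapgef6, a Rap exchange factor, fell by 0.35 on the log2 scale. Csf2 and Il3 had 997 and 393 counts summed over the PBS supernatant group, where Il13 and Il4 had 13 and 1.

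**Figure D3:**
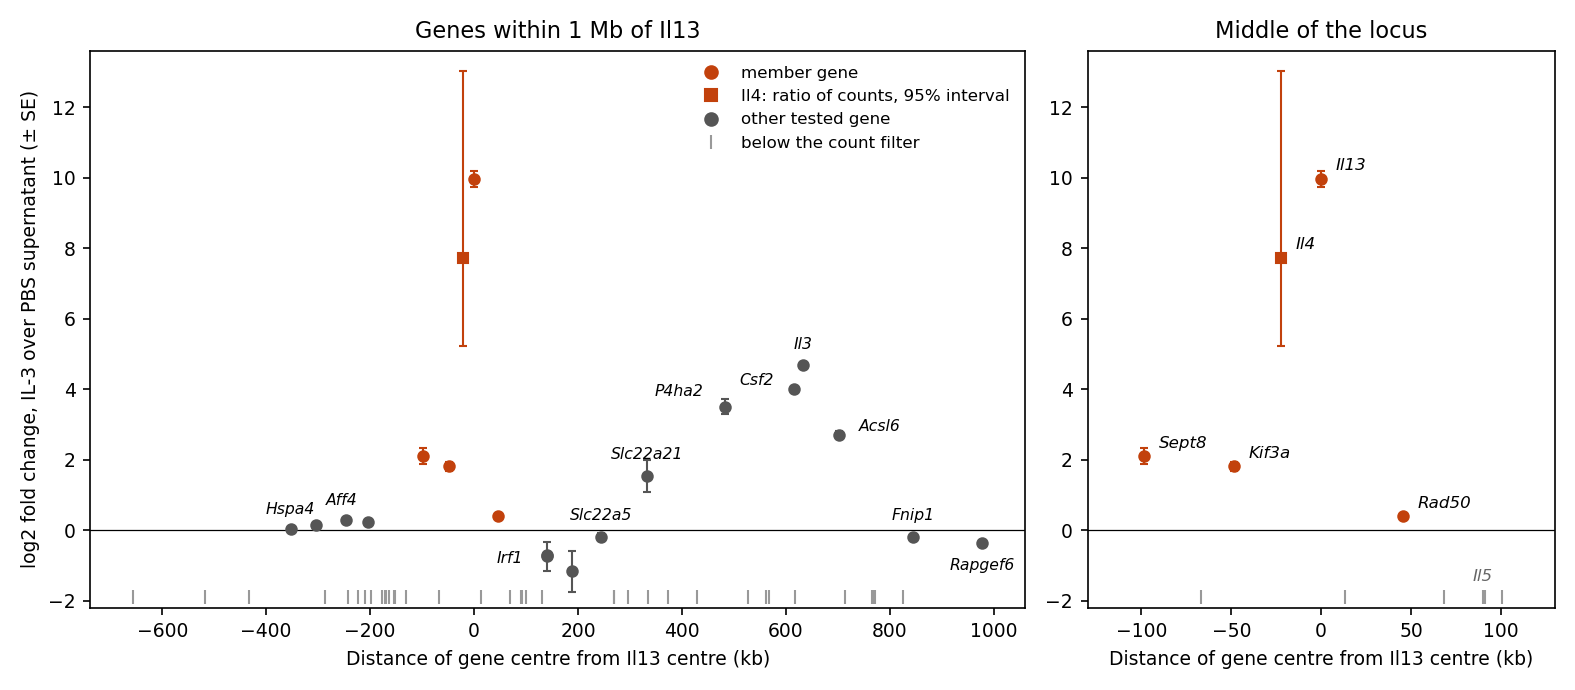
Log2 fold change (IL-3 over PBS supernatant, ± SE) of tested genes against the distance of the gene's centre from that of Il13 in kb, over the whole window (left) and in its middle (right); grey ticks mark genes below the count filter, and Il4 is drawn as the ratio of counts with its 95% interval. Il13 and Il4 stand at 9.97 and 7.73, Sept8 and Kif3a near 2, Rad50 at 0.40 and Irf1 at -0.70, with Csf2 and Il3 at 4.01 and 4.68 on the right.

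Each of the 3 neighbours was set beside a list of partners or relatives, drawn up with earlier results known. The counts stand against 30.9% of all tested genes called in either direction, 14.8% higher and 16.1% lower. Rad50 forms a complex with MRE11 and NBS1, and these did not rise with it. Nbn fell by 0.28 on the log2 scale (edgeR adjusted p = 0.00851), and Mre11a stood at log2 -0.13 (SE 0.06, adjusted p = 0.113). Of 15 DNA break repair genes 1, the ligase gene Lig4 (0.38), rose and 6 fell, with H2afx, Brca2, Xrcc5 and Atr between -0.37 and -0.22, and the median was -0.06. Kif3a pairs with KIF3B and KIFAP3. Kif3b stood at 0.05 (SE 0.05, adjusted p = 0.551), and Kifap3 rose by 0.38 (adjusted p = 0.0266). Of 13 tested kinesin-2 and intraflagellar transport genes 3 rose and 2 fell, the highest being Bbs4 at 0.73, and the median was 0.19. Of 7 tested septins none rose and 3 fell, namely Sept6 (-0.64), Sept1 (-0.38) and Sept11 (-0.28), and the abundant Sept9, Sept7 and Sept2 did not pass (-0.02, -0.09 and 0.04). Differences between a member and its partners were not tested, as the members were chosen on this contrast.

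For Areg, the related genes were mostly low. Among 16 EGF family ligands, receptors and shedding factors, a list drawn up with earlier results known, 9 were tested. Of these, 3 rose and 1 fell, where 14.8% of all tested genes rose and 16.1% fell. The median of the 9 was 0.30. Rhbdf2, a cofactor of the protease ADAM17 that releases amphiregulin, rose by log2 0.77 (SE 0.09, adjusted p = 6.9e-06), and Adam17 itself stood at -0.12 (adjusted p = 0.174). Adam10, another shedding protease, fell by 0.30 on the log2 scale. Egfr, the receptor of amphiregulin, rose by 2.92 (adjusted p = 1.9e-04) at a low level, 1.46 ± 0.053 CPM with IL-3 supernatant and 0.187 ± 0.0312 CPM with PBS supernatant. With 4, 3 and 3 counts in PBS supernatant libraries, Egfr passed the count filter only through the IL-3 supernatant group. The ligand gene Hbegf did not pass (log2 -0.06, adjusted p = 0.745), and Ereg had no count in any library.

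**Figure D4:**
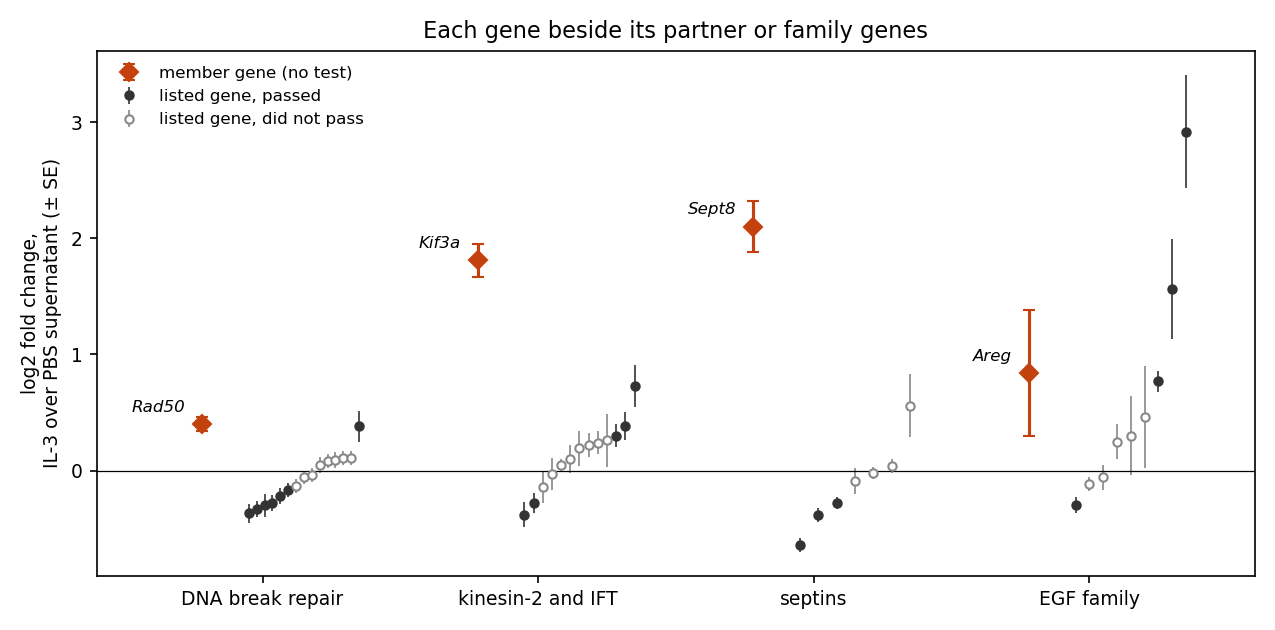
Log2 fold change (IL-3 over PBS supernatant, ± SE) of Rad50, Kif3a, Sept8 and Areg (orange diamonds) beside the tested genes of their partner or family lists (filled circles passed the test, open circles did not). Kif3a at 1.81 and Sept8 at 2.10 stand above every listed partner or relative, whose highest values are 0.73 and 0.56, and Egfr at 2.92 is the highest of the EGF family.

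Receptors decide which of these cytokines the T cells themselves could sense. Il4ra, the chain shared by IL-4 and IL-13 signalling, rose by log2 0.56 (edgeR adjusted p = 4.3e-07), and its partner Il2rg fell by 0.24 on the log2 scale (adjusted p = 0.00213). Il13ra1 had 2, 0 and 0 counts with IL-3 supernatant and 0, 0 and 1 with PBS supernatant, and neither Il13ra2 nor Il5ra had a count in any library. Il9r had 5, 12 and 8 counts with IL-3 supernatant and 2, 8 and 0 with PBS supernatant, below the filter. Of 33 receptor and signalling genes, a list drawn up with earlier results known, 26 were tested. Of these, 11 rose and 7 fell, where 14.8% of all tested genes rose and 16.1% fell. The median of the list was 0.10. Stat5a (1.25) and Jak2 (1.10) were among those that rose, Socs2 (-1.38) and Il17ra (-0.80) among those that fell, and Stat6, the factor downstream of IL-4, did not pass (-0.05, SE 0.05).

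Known regulators of the cytokine cluster moved in both directions. The list was drawn up with earlier results known, so its counts are a description. Of 50 listed genes 48 were tested, of which 23 rose, 12 fell and 13 did not pass, where 14.8% of all tested genes rose and 16.1% fell. The median log2 fold change was 0.15, against 0.00 over all tested genes. The factor GATA3, which activates Il4, Il5 and Il13 in Th2 cells, had its gene at 106 ± 7.51 CPM with IL-3 supernatant and 12.7 ± 1.51 CPM with PBS supernatant (log2 3.06, adjusted p = 3.0e-13). Maf, an activator of Il4, averaged 7.19 ± 1.45 CPM with IL-3 supernatant and 0.358 ± 0.284 CPM with PBS supernatant (log2 4.31, adjusted p = 2.3e-07). With 4, 3 and 12 counts in PBS supernatant libraries, Maf passed the count filter only through the IL-3 supernatant group, and it is among the 23 that rose. Satb1, a chromatin organizer that loops the cluster in Th2 cells, rose by 1.67, the transcriptional repressor gene Gfi1 by 1.09 and the phosphatase gene Dusp10 by 1.96. Of the factors that hold the cluster silent in type 1 cells, Eomes fell by 1.86 on the log2 scale, whereas Tbx21, which encodes T-bet, rose by 0.41. Irf4, Notch1 and the remodeller gene Chd4 did not pass.

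Among other genes of type 2 and helper T cells, a list drawn up with earlier results known, many were below the count filter. Of 37 found, 19 were tested, of which 15 rose, 3 fell and 1 did not pass, where 14.8% of all tested genes rose and 16.1% fell. Some passed the filter only through the IL-3 supernatant group, such as Il21 with 94, 179 and 153 counts there and 2, 0 and 0 counts with PBS supernatant, so the count is no measure of the whole list. The cytokine genes Il24 (8.68, SE 0.18), Il21 (7.30, SE 0.53) and Il10 (5.39, SE 0.55) had the highest values. All of them passed the filter only through the IL-3 supernatant group, so the values rest on few PBS supernatant counts. Those were 12, 6 and 4 for Il24, and 1, 15 and 1 for Il10. Ccr8, a chemokine receptor gene typical of Th2 cells, rose by 4.95, the enkephalin precursor gene Penk by 3.90 and the protease gene Furin by 1.75. The IL-33 receptor gene Il1rl1, the chemokine gene Ccl1 (-2.25) and Plac8 (-1.25) fell. Of 15 tested type 1 and type 17 genes, also listed with earlier results known, 7 rose and 6 fell, with a median of -0.01. Ifng, the hallmark cytokine of CD8 T cells, averaged 1701 ± 41.6 CPM with IL-3 supernatant and 876 ± 57.3 CPM with PBS supernatant.

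The tested genes whose profiles lay nearest to each member were found by the Euclidean distance between log2 CPM values centred on the gene's mean, over the 6 libraries. Other members and unnamed gene models were left out of this search, so a nearer gene among them would not appear. For Il13 they were Il24, Inhba and Akr1c18, at distances of 2.46, 3.44 and 3.97. For Il4 they were Ccr8, Rnd3 and Ajuba (0.581 to 0.805), and for Il9 they were Ccr8, Pdpn and Il3 (0.588 to 0.738). With PBS supernatant, the profiles of Il4 and Il9 rest on the added prior count of 2, so their distances are not a measured likeness. The profile of Il13, with 2, 2 and 9 counts there, depends on the prior count too, and its distances carry the same limit. For Kif3a they were Pros1, Ppp2r3a and Enox1 (0.174 to 0.246), for Sept8 they were Rasgrp4, Ebi3 and Cd63 (0.409 to 0.469), for Rad50 they were Kdm4a, Plscr1 and Nsf (0.0595 to 0.0668), and for Areg they were Ager, Gng4 and Ptprf (0.465 to 0.565).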

How the data were processed

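Expected counts per gene and TPM were deposited by the authors; for PBS supernatant replicate 2 the deposited TPM are per isoform and were summed per gene. The submitters' processing notes name RSEM 1.2.12, Bowtie2 2.2.0, edgeR 3.20.9 and GRCm38 without their roles, and the strand setting is not given in the sources used here, so reads of overlapping genes cannot be told apart. Symbols were found for 46005 of 46517 identifiers.

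Expected counts were rounded to whole numbers, genes with low counts were removed with edgeR's filterByExpr, and the groups were compared over 12407 genes with edgeR 4.0.16 (TMM scaling, quasi-likelihood test, Benjamini-Hochberg, adjusted p below 0.05 called). Each adjusted p in the text comes from this fit. CPM are rounded counts over effective library sizes (the total over tested genes times the TMM factor), as are ratios of summed counts, and the precision follows from totals of 17377052 to 22174902 counts per library. Ratios of summed counts carry exact conditional intervals (95%) that cover counting error only. Promoters are from RefSeq (GRCm38.p6). Alternatives were DESeq2 1.42.0 and its size factors, other filters and thresholds, limma-voom (limma 3.58.1), log2 TPM with 2 pseudocounts, a 500 kb window, a replicate block and leaving out each library.

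The members and gene lists were chosen with earlier results of these data known. Genes named are the members, the tested neighbours next to them and those within 1 Mb called at 2-fold or more, up to 6 called genes of smallest p and 3 abundant uncalled genes per list, markers of basophils and CD4 T cells, 8 genes fixed by name, and the 3 nearest profiles. Il21, Il10, Ccl1, Plac8, Il2rg, Il13ra1, Il13ra2, Il5ra, Il9r, Ereg, Ighm, Aff4, Hspa4, Rapgef6, Gm17334, Gm12216, Slc22a5 and CT010467.1 were named after their values were seen.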

Additional observations from a re-analysis of the deposited data

How the results depend on the processing

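Of 243 recomputed values 226 stayed within the spread, or within 1.5 times the count, and 17 moved. Counts of called genes have no direction, and a reversal was looked for only in members called in the main fit, where 0 occurred. For Areg the spread, 0.85, exceeds the log2 difference of 0.84, so staying within it says little. At adjusted p below 0.01, 1217 genes were higher in place of 1834, and within 500 kb of Il13 4 neighbours rose and 1 fell, in place of 7 and 2 within 1 Mb. On the log2(TPM + 1) scale, over 5 libraries, the differences were 8.10 for Il13, 3.67 for Il4, 0.28 for Il5, 3.48 for Il9, 1.44 for Kif3a and 1.28 for Sept8, and with TPM + 0.1 they were 6.26 for Il4, 6.02 for Il9 and 1.60 for Kif3a. A pseudocount shrinks the fold of low genes by construction. Leaving out each library in turn gave 9.62 to 11.05 for Il13 (log2 fold change), and log2 ratios of summed counts of 7.13 to 7.80 for Il4, 1.38 to 2.26 for Il5 and 6.80 to 7.49 for Il9, where Il4, Il5 and Il9 have no value without PBS supernatant replicate 3. It gave 0.47 to 1.09 for Areg, 0.39 to 0.43 for Rad50, 1.73 to 1.87 for Kif3a and 1.93 to 2.35 for Sept8. The median log2 fold change of all genes was 0.00 with TMM, 0.00 with DESeq2 size factors and 0.02 with library size only.

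Libraries of the 2 groups share replicate numbers. Correlations of same-numbered deviations were -0.148, 0.0517 and 0.255, and those of differently numbered libraries ran from -0.284 to 0.256. Not every library correlated best with its own number, but with 3 libraries per group these values cannot decide whether the numbers mark pairs. With a replicate block 3410 genes were called, against 3835 without it, and 3361 in both. Depth limits Il5, and the PBS supernatant values of Il4 and Il9, which rest on single counts.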
